A study of Caenorhabditis elegans with 2 samples.

Results

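Binding of the E2F-family transcription factor EFL-1 was examined at 30 Caenorhabditis elegans genes that build, pair and recombine meiotic chromosomes. The genes were listed by symbol, and each symbol matched 1 of the 19973 nuclear genes annotated as protein-coding. The data came from chromatin immunoprecipitation and sequencing of whole first-stage (L1) larvae, males and hermaphrodites pooled, of strain YL424. This strain carries the unc-119(ed3) mutation and the insertion vrIs68, from which the efl-1 promoter drives EFL-1 joined to GFP and FLAG, followed by the efl-1 3' UTR, with a functional unc-119 gene beside it. The labels name the fusion protein as the target and efl-1 as the antibody, and whether the antibody recognised GFP or EFL-1 is not given in the sources used here. Peaks are called EFL-1::GFP peaks after the target. The labels name no mutation of efl-1 itself, and give the age of the larvae as unknown. There was 1 group of 2 libraries, biological replicates 1 and 2, and no second strain, stage or treatment. No test between conditions was therefore possible, and the counts below are descriptions set beside the same counts over all protein-coding genes.

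In meiosis, homologous chromosomes find each other, are joined along their length by the synaptonemal complex, and exchange DNA at crossovers that start as programmed double-strand breaks. In the worm, pairing starts at special chromosome ends called pairing centres, and HORMA-domain proteins with meiotic cohesins form the axis on which the rest is assembled. Meiosis takes place only in the germ line, which in a newly hatched larva consists of a few primordial germ cells that have not yet entered it. EFL-1 works with a DP partner and the pocket protein LIN-35 in the DREAM complex, which holds down cell cycle and germline genes in body cells. Whole larvae were used, so that binding in germ cells and in body cells could not be told apart.

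Few of the meiotic promoters had an EFL-1::GFP peak. A promoter peak was a summit of the authors' reproducible list between 500 bp upstream and 100 bp downstream of any annotated start of the gene. Such a peak was present at 4 of the 30 genes (13.3%), against 14.8% of all protein-coding genes and 16.1% of those on autosomes, where all 30 lie. The 4 were pch-2, syp-3, syp-2 and him-17. A further 5 genes, namely spo-11, coh-3, xnd-1, him-19 and cosa-1, had no promoter peak but a reproducible summit within 2 kb upstream (16.7%, against 7.31% of all genes). With genes that also had a promoter peak included, a summit in this upstream region was present at 9.05% of all genes and still at 5 members. The other 21 had neither. The share of members with a promoter peak was thus near that of the genome as a whole. In a wider promoter, 1000 bp upstream to 200 bp downstream, it was 9 of 30 (30%, against 17.9% of all genes). Among the strongest 3824 entries of replicate 2 alone 5 members had a promoter entry (16.7%, against 14.8% of all genes), with dsb-1 added to the 4. Among those of replicate 1 alone 3 had one (10%, against 11.8%), namely pch-2, syp-3 and spo-11.

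**Figure D1:**
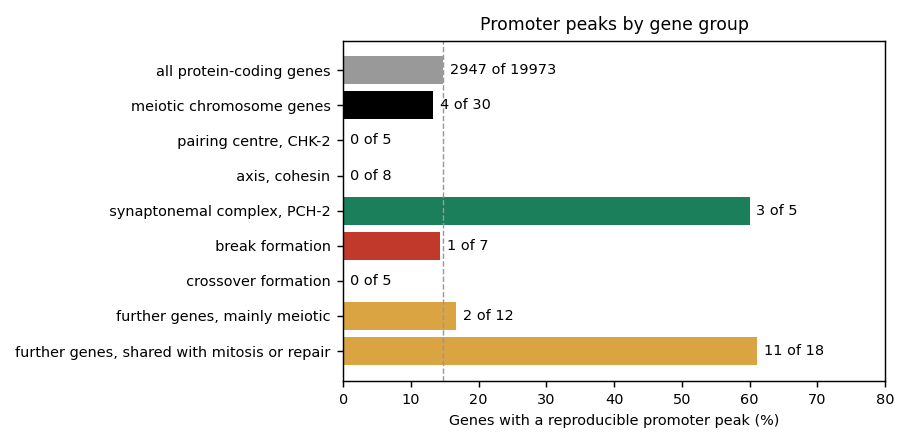
Bars give the percentage of genes with a reproducible EFL-1::GFP promoter peak, for all protein-coding genes, the 30 meiotic chromosome genes, their 5 role groups, and 2 lists of further meiotic genes, and the dashed line marks the share of all genes. The group of synaptonemal complex genes with pch-2 (3 of 5) and the further genes shared with mitosis or repair (11 of 18) have the longest bars. The members and the further genes were listed with earlier results of these data known. Pairing, axis and crossover genes have no promoter peak.

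The reference sequence at some peaks of members is shown to give the letters around the E2F or CHR core nearest to the summit. These cores are the elements that E2F proteins and the DREAM subunit LIN-54 are known to bind. Each run is 30 bases of the RefSeq WBcel235 (ce11) sequence, 5′ to 3′ in the direction of the gene. Capitals mark the E2F core nearest to the summit, or where there is none within 50 bp the nearest CHR core, or where there is neither the summit base. The runs are centred on the capitals, so that the summit lies within the run of syp-2 and outside the other 5. The E2F core was searched, on both strands, as TTCCCGC, in a further form as TTGGCGC, in another form as TTCGCGC, and in the last form as TTGCCGC. The CHR core was searched as TTTGAA and in its other form as TTCGAA. The cores of the 2 families share no full word but can lie side by side or overlap. The first 3 runs are from promoter peaks, the next from the promoter entry of dsb-1 that fell just below the reproducible list, and the last 2 from peaks upstream of coh-3 and spo-11. The promoter peak of syp-3 and the upstream peaks of him-19, xnd-1 and cosa-1 are not shown.

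him-17, chrV:13176584-13176613, plus strand: ttcaacaacgcTTGCCGCtctcattgcttt
pch-2, chrII:8158126-8158155, plus strand: cccgcccatataTTCAAAatggcacaaaac
syp-2, chrV:5536416-5536445, plus strand: catgcgttagagcgGagcgtcgttacaaca
dsb-1, chrIV:12408781-12408810, plus strand: ttgaatttgaaTTCGCGCgtaaaagtgatg
coh-3, chrV:14456769-14456798, plus strand: caggaaaatcaaTTTGAAatacaatgattc
spo-11, chrIV:11125765-11125794, minus strand: tttcggcgcgcaTTCAAAatttctagcgca

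Of the 4 promoter peaks, that of him-17 held an E2F core within 50 bp of the summit, centred 24 bp downstream of it. Those of pch-2 and syp-3 held the CHR core TTTGAA, centred 46 bp upstream (−46 bp) and 35 bp downstream of the summit. The peak of syp-2 held neither. Over all 3824 reproducible summits 16.8% had an E2F core and 34.4% a CHR core in this window, and among the 20% with the highest scores the shares were 31.0% and 59.2%. In the run of dsb-1 the E2F core, centred at −20 bp from the summit, follows directly on a TTTGAA. The CHR core of coh-3 was centred at −24 bp and that of spo-11 at 33 bp downstream of the summit. The other 3 upstream peaks, at him-19, xnd-1 and cosa-1, held neither core within 50 bp of the summit. In the promoter from 500 bp upstream to 100 bp downstream of the outermost start, 7 of the 30 members had an E2F core (23.3%, against 17.4% of all promoters). These were him-17, dsb-1, chk-2, him-14, msh-5, him-18 and zim-2, of which him-17 alone had a promoter peak in the reproducible list. A CHR core was in 29 of the 30 promoters (96.7%, against 89.6% of all), and him-5 was the member without one. A match of letters is a description and not a binding site.

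Of the 4 promoter peaks, 2 were at genes of the synaptonemal complex itself and 1 at pch-2, which was grouped with them. In this small group 3 of 5 genes thus had one (60%, against 14.8% of all genes), and no test was made. The syp-3 summit was nearer to another gene, and the syp-2 peak had no entry in replicate 1. The complex is a zipper between homologues whose central region contains SYP-1, SYP-2, SYP-3 and SYP-4, and PCH-2 is the AAA ATPase that remodels HORMA proteins on the axis. The strongest peak at any member promoter was that of pch-2 (WBGene00008641), at chromosome II 8158042 to 8158322 between genes, with its summit 162 bp upstream of the start (−162 bp). Its score was 689 on the authors' scale, which ranked 481 of 3824, and 80.5% of the 2947 genes with a promoter peak had a lower score. In the replicate lists it scored 102 and ranked 464 in replicate 1, and scored 588 and ranked 478 in replicate 2. No other gene's promoter held this summit. Among the 4 peaks it was the strongest, and it stood in both replicates at nearly the same rank.

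The peak of syp-3 (WBGene00006377) scored 172, close to the median of 169 over all genes with a promoter peak. It lay at chromosome I 8664802 to 8664987, with its summit at −439 bp from syp-3 and at −92 bp from the divergent neighbour F39H2.3. It scored 17.4 (rank 1746) in replicate 1 and 150 (150.15, rank 1268) in replicate 2. With each summit given only to its nearest start, it belonged to F39H2.3 and the members with a promoter peak were 3.

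The peak of syp-2 (WBGene00006376) was weaker, with a score of 70.2 (rank 2503), and 20.3% of genes with a promoter peak scored lower. It lay at chromosome V 5536262 to 5536597, with its summit at −57 bp from syp-2 and −187 bp from the divergent gene cox-16, which encodes a cytochrome c oxidase assembly factor. It rested on replicate 2, where it scored 68.9 (rank 2378), and no entry of replicate 1 overlapped it. The remaining pair had entries below the reproducible list. At syp-4 the pooled list had a promoter entry of score 16.7 at −135 bp with a −log10 q of 0.900 (0.8998). In replicate 2 the entry scored 17.9 at −131 bp with a −log10 q of 4.22, the maximum of that list, and in replicate 1 an entry scored 6.40 at −481 bp. At syp-1 the pooled promoter entry scored 9.71 at −317 bp with a −log10 q of 0.112, beside 7.84 at −157 bp in replicate 2 with a −log10 q of 2.91, and none in replicate 1. All 5 genes of this group had a promoter entry in the pooled list, with scores from 9.71 to 689, where 33.2% of all genes had one. That list includes background.

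**Figure D2:**
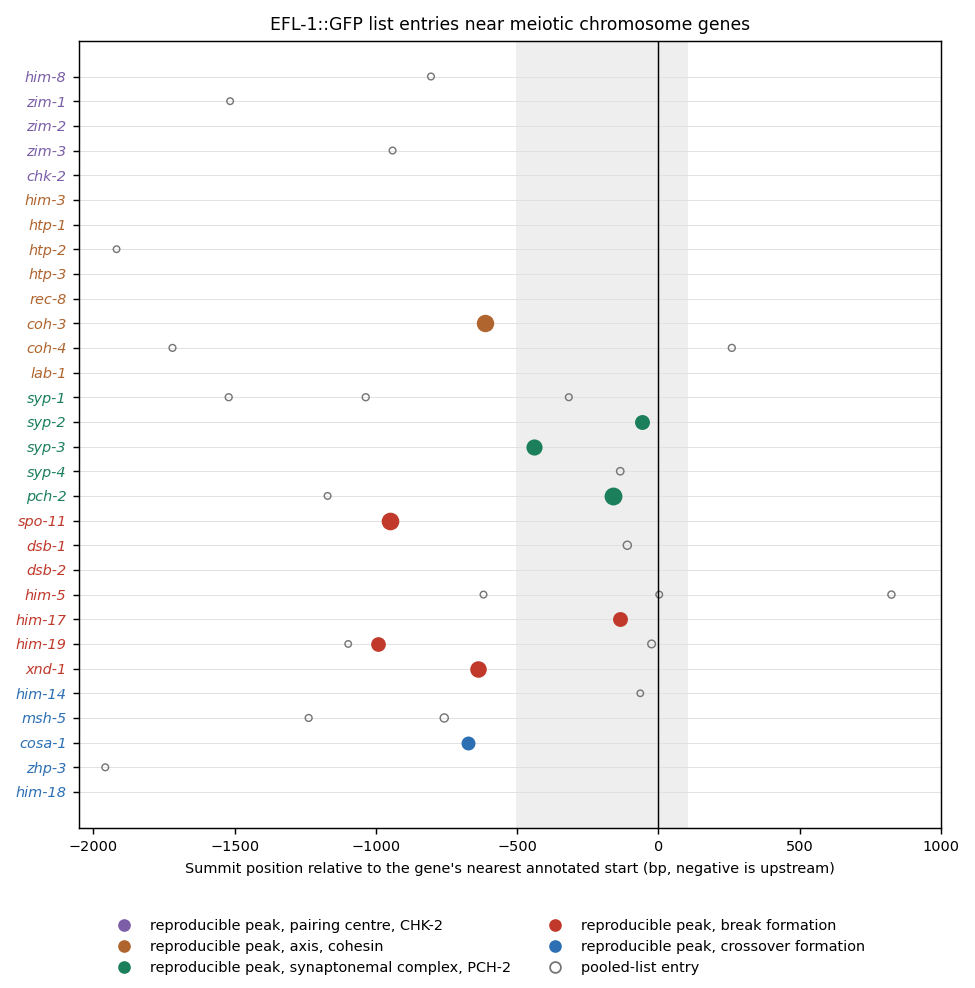
Each row is a member gene, and the horizontal axis gives the position of an entry's summit in bp from the nearest annotated start of the gene, with the grey band from 500 bp upstream to 100 bp downstream. Filled circles are reproducible peaks, open circles are entries found only in the pooled list, and larger circles have a higher score on a log scale. The 4 promoter peaks lie at −439 to −57 bp, and the 5 upstream peaks at −993 to −614 bp.

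Of the 7 genes of double-strand break formation, 1 had a promoter peak (14.3%, against 14.8% of all genes), a count near the background. SPO-11 is the topoisomerase-like enzyme that makes the breaks, DSB-1 and DSB-2 promote them, XND-1 and HIM-5 are needed for breaks and crossovers on the X chromosome, and HIM-17 is a chromatin-associated protein required for break formation. HIM-19 is also needed for breaks and for pairing. The promoter of him-17 (WBGene00001874) had a peak of score 67.1 (rank 2577) at chromosome V 13176406 to 13176741, with its summit at −137 bp. In replicate 2 it scored 58.0 (57.969, rank 2679), and as at syp-2 no entry of replicate 1 overlapped it. The gene upstream, noca-1, runs on the same strand and ends 596 bp before him-17, and no other promoter held the summit.

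The dsb-1 promoter came just short of the reproducible list. Its pooled entry at chromosome IV 12408647 to 12408982 scored 33.0 (rank 4015, −log10 q of 3.43) with its summit at −110 bp, where the lowest score of the reproducible list was 35.7. In replicate 2 the entry scored 35.4 at −116 bp, and the replicate 1 entry in the promoter scored 6.66 at −389 bp. At him-19 the pooled promoter entry scored 21.9 (21.95) at −24 bp. At him-5 it scored 9.01 at 3 bp downstream, beside 4.98 in replicate 2. No list had an entry in the promoter of dsb-2 or within 2 kb upstream of it.

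Both spo-11 and xnd-1 had reproducible peaks upstream that lay nearer to another gene. The spo-11 peak, at chromosome IV 11125631 to 11125932, scored 563 (rank 547), with 77.3 in replicate 1 (rank 567) and 510 (509.88) in replicate 2 (rank 525). Its summit was at −951 bp from spo-11 and at −211 bp from the divergent gene swsn-4, which encodes the ATPase of the SWI/SNF remodelling complex. In replicate 1 the spo-11 promoter held a further entry of score 12.5 at −166 bp with a −log10 q of 0.565, and in replicate 2 an entry of score 36.9 lay at −502 bp, just outside the promoter. The xnd-1 peak, at chromosome III 5603697 to 5603919, scored 231 (rank 1024), with 19.9 in replicate 1 (−log10 q of 1.45) and 217 in replicate 2. It lay −639 bp from xnd-1 and −332 bp from the divergent gene madf-11. The him-19 peak at −993 bp scored 59.1, with 12.1 in replicate 1 and 46.9 in replicate 2, and was the only upstream peak whose nearest protein-coding start was that of the member.

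None of the 8 genes of the chromosome axis had a promoter peak. The share over all genes was 14.8%, so that in a group of 8 this count is near the background. HIM-3, HTP-1, HTP-2 and HTP-3 are the HORMA-domain proteins of the axis, REC-8, COH-3 and COH-4 are the kleisin subunits of meiotic cohesin, and LAB-1 protects cohesion between sister chromatids. None of the 8 promoters had an entry in the pooled list, against 33.2% of all genes. The replicate lists held 7.20 at −155 bp of htp-3 in replicate 1, and in replicate 2 an entry of 2.85 at −32 bp of coh-3 and 4.79 at −355 bp of coh-4. Their −log10 q values were 0.146, 0.377 and 1.35. For him-3, rec-8 and lab-1 no list had an entry in the promoter or within 2 kb upstream. The reproducible summit nearest to the outermost start was 17.3 kb away at rec-8, 22.6 kb at him-3 and 7.18 kb at lab-1. It was 2.87 kb away at htp-3, 3.35 kb at htp-1, 4.17 kb at htp-2 and 5.79 kb at coh-4.

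Within 2 kb upstream, coh-3 alone of the 8 had a reproducible peak (12.5%, against 9.05% of all genes). A peak of score 476 (rank 603) at chromosome V 14456673 to 14456934 had its summit at −614 bp from coh-3, with 85.6 in replicate 1 (rank 522) and 381 in replicate 2 (rank 640). This position is in an intron of the divergent neighbour bmk-1, a kinesin-5 gene, at −84 bp from one of its starts. The peak itself reached into the coh-3 promoter, so that with any overlap of at least 1 bp in place of the summit coh-3 was counted and the number of members rose to 5.

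The gene of the mitotic kleisin, scc-1, stood beside these as a gene outside the 30. Like the members, it was chosen with earlier results of these data known. Its promoter peak scored 1436.5 (rank 244), with 223 in replicate 1 and 1212 in replicate 2, and 90.2% of genes with a promoter peak scored lower. The summit lay −253 bp from scc-1 and −41 bp from the divergent gene rpn-5, a proteasome subunit gene, and with nearest starts alone it belonged to rpn-5. At rec-8, coh-3 and coh-4 the reproducible and pooled lists had no promoter entry. The highest promoter score in a replicate list was 4.79, at coh-4 in replicate 2, the list in which scc-1 scored 1212. The coh-3 peak of score 476 had its summit outside the promoter, and like that of scc-1 it lay nearer to a divergent neighbour. No test of these differences was made.

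None of the 5 pairing genes had a promoter peak or a reproducible summit within 2 kb upstream. Over all genes 14.8% had the first and 9.05% the second, so that in a group of 5 these counts are near the background. HIM-8 binds the pairing centre of the X chromosome, ZIM-1, ZIM-2 and ZIM-3 are its zinc-finger relatives for the autosomes, and CHK-2 is the kinase that starts pairing and break formation. The 4 zinc-finger genes lie side by side at chromosome IV 10547086 to 10563974, a stretch of 16.9 kb with no other protein-coding gene. The reproducible list had no summit in it, and the nearest ones were 43.1 kb before it (score 54.1) and 133 kb (133.0) after it. The pooled list had 2 entries in the stretch, the stronger with a score of 9.82 and a −log10 q of 0.118, and the replicate 1 list had 2, with at most 12.3. Replicate 2 had none. No list had an entry in the promoter of chk-2 or within 2 kb upstream of it. The only promoter entry of the group in any list was at zim-3 in replicate 1, with a score of 5.9991 at −215 bp.

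None of the 5 crossover genes had a promoter peak, a count near the background share of 14.8%. HIM-14 and MSH-5 are the worm's MSH4 and MSH5, COSA-1 is a cyclin-like protein and ZHP-3 a RING-finger protein that mark crossover sites, and HIM-18 is the worm's SLX4. The peak upstream of cosa-1, at chromosome III 2725274 to 2725609, was among the weakest of the list, with a score of 35.9 (rank 3808 of 3824) and 34.7 in replicate 2. The overlapping entry of replicate 1 scored 8.38, with its summit at −492 bp, just inside the promoter. The summit of the reproducible peak was −674 bp from cosa-1 and −350 bp from Y71H2AM.11, in an intron of cox-6B. Just below the list, msh-5 had a pooled entry of 33.4 (rank 3978) at −758 bp, with 10.7 in replicate 1 at −825 bp and 21.6 in replicate 2 at −758 bp. The pooled promoter entry of him-14 scored 7.92 at −64 bp, and the replicate 2 promoter entry of zhp-3 scored 2.21 at −199 bp. For him-18 no list had an entry in the promoter or within 2 kb upstream.

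The peaks present in both replicates stood in the same order in each, except that spo-11 and coh-3 changed places. Of the 9 reproducible peaks in promoters or within 2 kb upstream of members, all 9 overlapped an entry of replicate 2 with a −log10 q above 2, as did 99.8% of all reproducible peaks. In replicate 1, 7 overlapped an entry (77.8%, against 76.3% of all reproducible peaks), and 3 overlapped an entry above that q (33.3%, against 31.4%), namely those of pch-2, spo-11 and coh-3. Those 3 were also the strongest in the pooled data, at 689, 563 and 476. Lists called separately need not share a scale, so scores are compared within a list. Among the strongest 3824 entries of replicate 1 alone, him-19 and cosa-1 had no upstream entry, and 3 members had one in place of 5 (10%, against 8.56% of all genes).

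**Figure D3:**
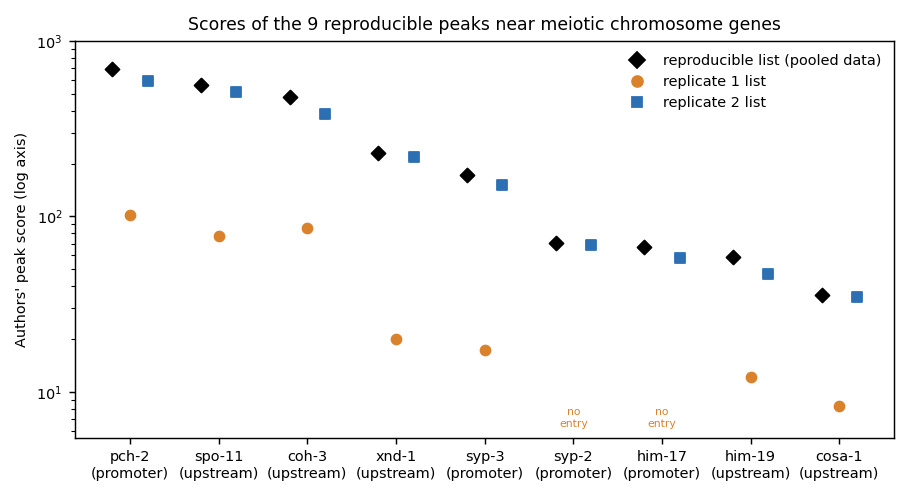
Points give the authors' score on a log axis for each of the 9 reproducible peaks near members, in the reproducible list (diamonds), in replicate 1 (circles) and in replicate 2 (squares), sorted by the reproducible score. Replicate 2 runs just below the reproducible list throughout, from 588 at pch-2 to 34.7 at cosa-1, replicate 1 runs from 102 to 8.38, and the peaks of syp-2 and him-17 have no entry there.

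With every entry counted, reproducible or not, the shares at meiotic promoters were near those at promoters in general. The pooled list, which includes background, had a promoter entry at 10 of the 30 members (33.3%, against 33.2% of all genes). Replicate 1 had one at 9 (30%, against 30.1%) and replicate 2 at 12 (40%, against 33.9%). Among the 26 members without a promoter peak, 6 had a pooled promoter entry, 7 one in replicate 1 and 8 one in replicate 2. The 6 pooled entries had scores of 7.92 to 33.0 and a median of 13.2. Of those 6, dsb-1 alone had a −log10 q above 2. Of the 8 in replicate 2, 4 members had an entry above that q, namely dsb-1, him-19, syp-1 and syp-4, and of the 7 in replicate 1 none had. Members with no entry of any list in the promoter or within 2 kb upstream numbered 7 (23.3%, against 27.1%). These were zim-2, chk-2, him-3, rec-8, lab-1, dsb-2 and him-18.

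The members were also described by their place in the genome, which the listing did not use. None of the 30 is on the X chromosome, which holds 13.7% of protein-coding genes, and 11 are on chromosome IV, which holds 16.4%, 4 of them in the stretch of zinc-finger genes. Of the others 7 are on V, 6 on I and 3 each on II and III. The median distance from the outermost start to the nearest reproducible summit was 3.11 kb for members (range 0.057 to 57.9), 9.11 kb for all protein-coding genes and 7.97 kb for those on autosomes. By group it was 0.439 kb for synaptonemal complex genes with pch-2 included, 0.993 kb for break genes, 2.78 kb for crossover genes, 4.98 kb for axis genes and 51.3 kb for pairing genes. The nearest gene upstream lay on the opposite strand for 18 of the 30 (60%, against 46.2% of all protein-coding genes), and no test of this difference was made. Of the 9 peaks near members, 5 had their nearest protein-coding start in another gene, and which gene a shared peak serves was not tested.

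Further meiotic genes outside the 30 were read in the same way, in a list of 12 genes that act mainly in meiosis and a list of 18 that also serve mitotic chromosomes, the nuclear envelope or repair. Of the first list, 2 of 12 (16.7%) had a promoter peak, against 14.8% of all genes. They were rec-1, a relative of him-5 that shapes where crossovers fall (score 1196.5, summit −53 bp), and cra-1, an acetyltransferase subunit gene needed for synapsis (1052.6, −32 bp). Both summits also lay in the promoters of divergent neighbours, pif-1, a DNA helicase gene, at 68 bp downstream of its start, and kbp-1, a kinetochore gene, at −141 bp. The later-described central region genes syp-5 and syp-6 had no promoter peak, nor had dsb-3, plk-2 and sun-1. An upstream peak of score 417 at −1505 bp from syp-6 lay −169 bp from bag-1.

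Both further lists were chosen with earlier results of these data known, so their shares and scores cannot be taken as independent of the peaks. Of the second list, 11 of 18 (61.1%) had a promoter peak, against 14.8% of all genes. Against a median score of 169 over all genes with a promoter peak, that of the 11 was 769. The highest were brc-1, the worm's BRCA1 (1840.7, with 298 in replicate 1 and 1541.7 in replicate 2), scc-1 (1436.5) and wapl-1, a cohesin release factor (1155.4). The cohesin genes smc-3 (1099.5), scc-2 (769) and scc-3 (164) also had one. The smc-3 summit lay −162 bp from smc-3 and from gly-9, and −66 bp from mib-1, the nearest start. That of scc-3 lay −260 bp from scc-3 and −310 bp from abcf-1. The scc-2 summit was in an intron of scc-2, −148 bp from its nearest start. The gene him-1, which encodes SMC-1, had a summit at −683 bp that lay −41 bp from mzt-1. The break processing genes mre-11 (791), rad-50 (392.45) and com-1 (135) and the recombinase gene rad-51 (557) were among the 11, as was brd-1 (340, 339.95). Other promoters also held the summits of wapl-1 (htz-1, −312 bp), mre-11 (wdr-5.3, −179 bp) and brd-1 (K04C2.2, −211 bp). In replicate 1 the com-1 entry scored only 7.41, with a −log10 q of 0.156. The nuclease genes mus-81, slx-1 and xpf-1, the helicase gene him-6 and rmh-1 had no promoter peak. An upstream peak of score 90.1 at −1493 bp from xpf-1 lay −150 bp from kel-1. The members him-17 and syp-2 scored lower than all 11, syp-3 lower than all but com-1 and scc-3, and pch-2 higher than 5 of them, rad-51, rad-50, brd-1, scc-3 and com-1. No test between the lists was made. With promoters 250 bp upstream to 50 bp downstream of a start the number over both lists was 8 in place of 13 (26.7% in place of 43.3%). The share over all genes went from 14.8% to 10.1%. With nearest starts alone the number over both lists was 11 (36.7%, against 11.4% of all genes), and scc-1 and smc-3 were not counted.

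**Figure D4:**
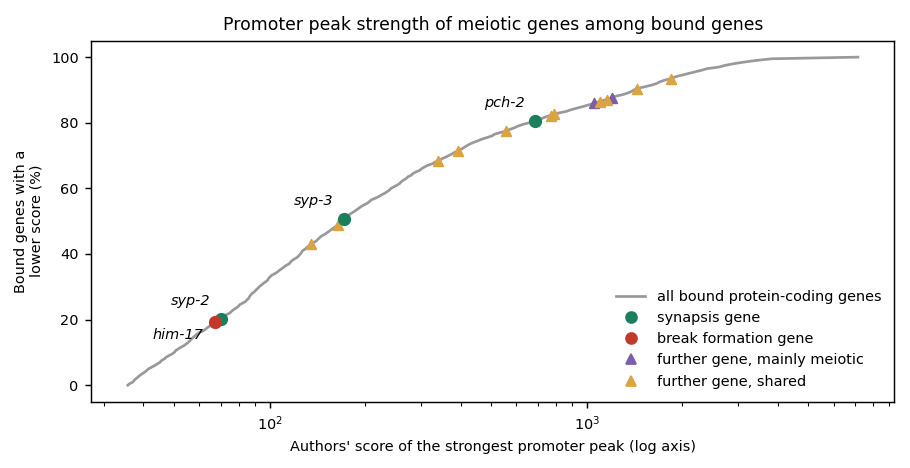
The grey line gives, for each score on the log horizontal axis, the percentage of the 2947 genes with a promoter peak whose strongest promoter peak scored lower. Circles are the 4 members, at 19.2% (him-17), 20.3% (syp-2), 50.8% (syp-3) and 80.5% (pch-2), and triangles are the 13 further meiotic genes, at 43.0% to 93.3%.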

How the data were processed

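The peak lists were deposited by the authors in the narrowPeak format, in the ce11 build. Per the labels, the fragment size range was 150 to 350 bp. Per the text files deposited with the libraries, lists that mix peaks with background were called on replicate 1, on replicate 2 and on the pool of both, each against a control alignment. The reproducible list is the one the authors call IDR thresholded (irreproducible discovery rate), and it was derived from those 3 lists. Of its peaks 76.3% overlapped an entry of replicate 1 and 99.8% one of replicate 2. A place in this list therefore need not mean an entry in both replicates. The aligner, caller and IDR threshold are not given in the sources used here. The score is the authors' own value, on a scale that is not stated. The −log10 of the q-value was also deposited by the authors, and reaches a maximum shared by many entries of a list (3.87 in the reproducible list). The lists held 3824 (reproducible), 28550 (pooled), 30000 (replicate 1) and 28686 (replicate 2) entries. They carry no read counts, so depth is unknown and no intervals are given.

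Genes, starts and exons were taken from Ensembl release 115 of WBcel235, which is the ce11 sequence, and bases from the RefSeq copy, with Python 3.11.15. Entries were assigned to genes by their summits, 1 summit could serve more than 1 gene, and replicate entries were matched by an overlap of at least 1 bp. Operons were not considered. No statistical test was run. The assignment and the core search were tested on simulated data. The members, the lists of further genes and the cores were chosen with earlier results of these data known. Named were all members, the genes sharing their summits, the strongest further genes and scc-1, and further genes named beyond these were chosen after their values were seen. Lists in the older build and the control library were not used here.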

Additional observations from a re-analysis of the deposited data

How the results depend on the processing

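Alternatives were the pooled list, each replicate alone, the stronger 50% of peaks, overlap in place of summits, wider and narrower promoters, nearest starts, and an upstream region of 1 kb. The number of members with a promoter peak, 4 in the reproducible list, was 10 with every pooled entry, 2 in the stronger 50% (pch-2 and syp-3; 6.67%, against 9.85% of all genes) and 9 with promoters from 1000 bp upstream to 200 bp downstream, which take in the 5 upstream peaks. In that wider promoter the members' share was 30% and that of all genes 17.9%, so that it changed from below to above the share of all genes. Without either replicate it was 3 to 5, and under the other alternatives 3 to 5 as well. Over all protein-coding genes it was 2947, 6633 with every pooled entry, and 2350 to 2947 without either replicate. For further meiotic genes it was 13, with 8 in the narrower promoter, 11 with nearest starts and 12 to 13 without either replicate. Members with a peak within 2 kb upstream numbered 5, against 15 with every pooled entry (40.3% of all genes had one), 3 in the stronger 50% (5.02% of all genes), and 3 to 5 without either replicate (8.56% to 9.19% of all genes). Within 1 kb upstream the number was still 5 (16.7%, against 3.64% of all genes). The number of member promoter peaks with an E2F core was 1 in every window tried. Where these counts moved, the longer list, shorter list or wider promoter is by construction what changed, and for replicate 1 the cause was not tested. No paired analysis was possible because there was only 1 group. Depth was unknown, so that an absent entry cannot be read as an absence of binding.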

Other observations

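Some reproducible peaks lay inside members, outside promoters and the 2 kb upstream. In chk-2 a summit of score 74.8 at chromosome V 19908903 to 19909238 fell in an exon, 6952 bp downstream of the start, with 82.4 in replicate 2 and no entry in replicate 1. It lay −1637 bp from the nearest start, that of fars-2. In zhp-3 there were 2 intronic summits, of score 50.6 and 40.8, at 1115 and 1678 bp downstream of the nearest zhp-3 start. The second lay −387 bp from the start of K02B12.7, inside its promoter. In replicate 2 they scored 40.8 and 52.7, and in replicate 1 the first scored 9.31 and the second had no entry.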
